A study of Mus musculus with 2 samples.

Results

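The miR-23/27/24 clusters are paralogous groups of microRNA (miRNA) hairpins, Mir23a, Mir27a and Mir24-2 on mouse chromosome 8 and Mir23b, Mir27b and Mir24-1 on chromosome 13. Of the 1973 miRNA gene rows in each count table, 6 belong to these loci: the 3 hairpins of chromosome 8, Mir23b and Mir27b of chromosome 13, and Mir3074-1, which lies on the other strand of Mir24-1. Mir24-1 itself is not analysed here. The 6 genes were chosen by name and position, through their Ensembl identifiers in the GENCODE annotation, and not by their counts.

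The libraries come from forebrain of B6NCrl mouse embryos at embryonic day 11.5 (E11.5), when this tissue is made largely of dividing neural progenitors. MicroRNA-seq, with inserts under 30 bases, was run on 2 libraries, biological replicate 1 from 109 pooled embryos and replicate 2 from 88, with males and females in both pools and the same donor entry for both. There is 1 group, with no treated or mutant embryos, so the comparisons are between genes and between the replicate libraries. A p-value between the libraries covers counting error only and says nothing of the spread between single embryos, which pooling removes.

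A miRNA gene is transcribed into a long precursor from which Drosha and Dicer cut a hairpin and then a duplex of short strands, named 5p and 3p after the arm of the hairpin. Argonaute keeps a strand and uses bases 2 to 8 of it, the seed, to find messenger RNAs that are then repressed. In each miR-23/27/24 cluster the hairpins are known to be cut from a shared precursor, and the clusters are known from blood vessel endothelium, where they act in vessel growth, and from fat cell differentiation, which miR-27 inhibits.

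The mature strands show which members share a seed and which cannot be told apart by their reads. They are given as RNA from RefSeq on GRCm38.p6, with those of miR-23b-3p and of the 3p strand of Mir3074-1 left out, 5′ to 3′, with the seed in capitals.
miR-23a-3p: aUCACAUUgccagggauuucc
miR-27a-3p: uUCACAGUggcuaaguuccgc
miR-27b-3p: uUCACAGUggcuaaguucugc
miR-24-3p (Mir24-2 and Mir24-1): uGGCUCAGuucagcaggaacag
miR-24-2-5p: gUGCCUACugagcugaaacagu
miR-24-1-5p: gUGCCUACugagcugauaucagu
miR-3074-5p (Mir3074-1 and Mir3074-2): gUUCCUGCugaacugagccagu
miR-27a-3p and miR-27b-3p have the same seed and differ at 1 base, C19U, counted from 1 at the 5′ end with the miR-27a-3p base first. miR-23a-3p has no exact copy in another hairpin of the table and matches the Mir23b hairpin with 1 mismatch.

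miR-24-3p, in contrast, is identical in both hairpins, which are shown here with their longest shared stretch of 28 bases in capitals.
Mir24-2 hairpin: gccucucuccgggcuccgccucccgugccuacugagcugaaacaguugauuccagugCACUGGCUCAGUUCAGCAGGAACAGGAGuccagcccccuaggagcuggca
Mir24-1 hairpin: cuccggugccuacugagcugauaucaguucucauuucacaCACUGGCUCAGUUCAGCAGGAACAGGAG
The whole of miR-24-3p lies in that stretch. A full read of it fits both places, and reads that fit several places stand in a separate row of the deposited files, outside the gene counts. How many of them were miR-24-3p is unknown, so the count of Mir24-2 is uncertain. The 5p strands of Mir24-2 and Mir24-1 share their first 16 bases and then differ. miR-3074-5p has an exact copy in Mir3074-2, on the other strand of Mir24-2, and overlaps miR-24-3p of the opposite strand over 20 bases, so the count of Mir3074-1 is uncertain in the same way. Of the 357 miRNA genes with 10 counts or more over both libraries and a mature entry in the RefSeq table, 13.2% have a mature strand with an exact copy in another hairpin, and of the 6 genes described here Mir24-2 and Mir3074-1 do.

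On build mm10, Mir23a (ENSMUSG00000065611) stands on the plus strand of chromosome 8 from 84208518 to 84208592, Mir27a (ENSMUSG00000065444) from 84208672 to 84208758 and Mir24-2 (ENSMUSG00000065541) from 84208815 to 84208921. No protein-coding gene of GENCODE M21 overlaps them, and the last 2 bases of Mir24-2 are shared with an exon of the long noncoding RNA gene Gm26532. Mir23b (ENSMUSG00000065599) stands on the plus strand of chromosome 13 from 63300484 to 63300557, in introns of 2010111I01Rik on the same strand and of Fancc on the opposite strand. Mir27b (ENSMUSG00000065475), from 63300712 to 63300784, and Mir3074-1 (ENSMUSG00000092741), from 63301199 to 63301283 on the minus strand, overlap exons of annotated 2010111I01Rik transcripts as well as an intron of Fancc.

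Replicate 1 held 1281201 counts on the strand of the miRNA genes and replicate 2 held 1297647. Levels are CPM (counts per 1e6 of these), and each count was worth 0.781 CPM in replicate 1 and 0.771 CPM in replicate 2. Reads mapping to several places made up 41.7% of the mapped reads in replicate 1 and 39.1% in replicate 2. The tissue label was set beside miRNA markers, from lists chosen with earlier results of these data known. Among 11 listed neural progenitor and neuron genes that were counted, 10 reached 2 CPM in both libraries. The list took 4.01% of the counts in replicate 1 and 3.45% in replicate 2. Most of this came from Mir92b at 17079 ± 1908 CPM (SD, n = 2) and Mir149 at 14979 ± 1706 CPM. Low members included Mir124a-2 at 20.5 ± 5.85 CPM and Mir9-2 at 8.16 ± 3.91 CPM. Each is a single copy among several listed genes of miR-124 and of miR-9. Reads that fit several copies stand outside the gene counts. These values and the share of the list thus do not give the level of either miRNA. The list of hindbrain and trunk Hox miRNAs took 0.0210% and 0.00840%. Blood vessel miRNAs, all 3 of them detected, took 4.27% in replicate 1 and 3.75% in replicate 2. The libraries are bulk tissue, in which fewer cells of a type and less RNA per cell cannot be told apart.

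All 6 genes were detected at 2 CPM or more in both libraries, against 21.5% of the 1973 rows. Together they held 2.09% of the counts in replicate 1 and 1.95% in replicate 2, a mean of 2.02% ± 0.0995 (SD, n = 2, as for every value with ± below). The hairpins of miR-23 made up most of this. Mir23a and Mir23b together had 19148 CPM in replicate 1 against 17868 CPM in replicate 2, while Mir27a and Mir27b together had 1391 and 1272 CPM.

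On chromosome 8, Mir23a, the first hairpin of its cluster, had 10463 counts or 8167 CPM in replicate 1 and 9543 counts or 7354 CPM in replicate 2. Its mean of 7760.3 ± 575 CPM ranked 36 of 1973 rows. Mir27a, the next hairpin of the same precursor, had 231 counts or 180.3 CPM in replicate 1 and 198 counts or 153 CPM in replicate 2. Mir24-2, the last hairpin, had 162 counts or 126 CPM in replicate 1 and 138 counts or 106 CPM in replicate 2. The means were 166 ± 19.6 CPM for Mir27a and 116 ± 14.2 CPM for Mir24-2, at ranks 202 and 227. Mir23a thus stood above Mir27a, and Mir27a above Mir24-2, in both libraries.

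On chromosome 13, Mir23b had 14069 counts or 10981 CPM in replicate 1 and 13643 counts or 10514 CPM in replicate 2, the highest of the 6 genes in both. Its mean was 10747 ± 331 CPM, at rank 23, or 1.10% of the counts in replicate 1 (95% Wilson interval 1.08 to 1.12%) against 1.05% in replicate 2 (1.03 to 1.07%). Mir27b had 1551 counts or 1211 CPM in replicate 1 and 1453 counts or 1119.7 CPM in replicate 2, with a mean of 1165 ± 64.3 CPM at rank 104. Mir3074-1, on the other strand of Mir24-1, had 351 counts or 274 CPM in replicate 1 and 371 counts or 286 CPM in replicate 2. Its mean of 279.9 ± 8.44 CPM, at rank 175, was above those of Mir27a and Mir24-2 and below that of Mir27b. The ranks of Mir24-2 and Mir3074-1 are those of the reads that fit 1 place.

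**Figure D1:**
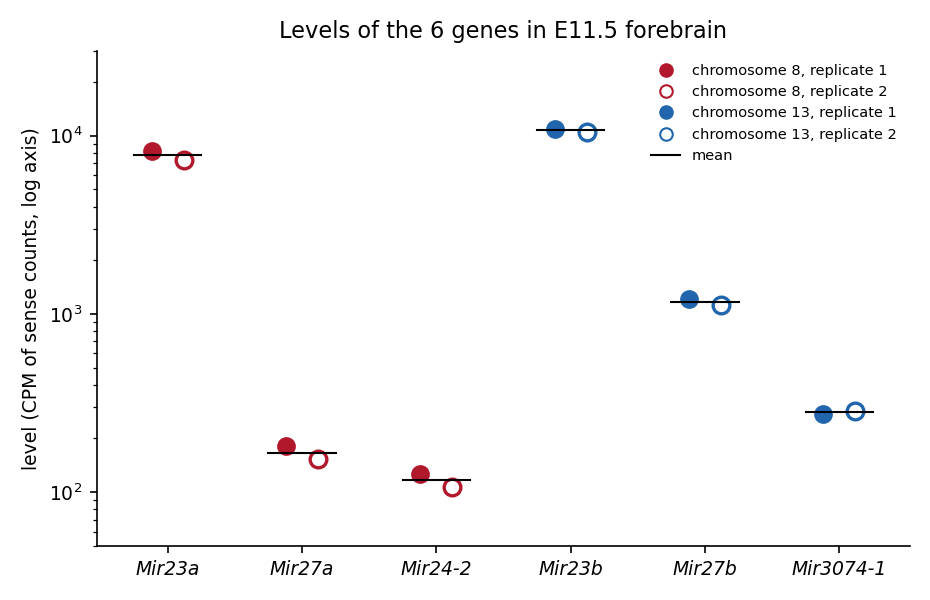
Level of each gene as CPM of the sense counts on a log axis, with filled circles for replicate 1, open circles for replicate 2 and a line at the mean, red for chromosome 8 and blue for chromosome 13. Mir23b and Mir23a stand at 7354 CPM or more, Mir27b near 1165 CPM, and Mir3074-1, Mir27a and Mir24-2 at 286 CPM or less.

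The order of the 6 genes, from Mir23b through Mir23a, Mir27b, Mir3074-1 and Mir27a down to Mir24-2, was the same in both libraries. All 15 pairs differed in both libraries in the exact binomial test of equal counts, with Benjamini-Hochberg adjustment over 30 tests, and in each the mean log2 ratio was larger than its SD. The closest pair was Mir23a over Mir23b, with log2 ratios of counts of -0.43 in replicate 1 (95% Clopper-Pearson interval -0.46 to -0.39) and -0.52 in replicate 2 (-0.55 to -0.48). Mir23a thus had fewer counts than its paralog, a mean of -0.47 ± 0.06. The pair with the largest adjusted p was Mir27a over Mir24-2, at 0.51 in replicate 1 (0.22 to 0.81, adjusted exact p = 0.000606) and 0.52 in replicate 2 (0.20 to 0.85, adjusted exact p = 0.00125). Mir27a over Mir3074-1 stood at -0.75 ± 0.21, and Mir27b over Mir3074-1 at 2.06 ± 0.12. These intervals cover counting error only. Pairs with Mir24-2 or Mir3074-1 compare counts that leave out reads fitting several places, so the places of these genes in the order are uncertain. A read of a miRNA spans the whole strand, so levels were compared per molecule. The longer mature strands listed are 21 or 22 bases long, and dividing by that length moved the log2 ratios by at most 0.07. Only pairs with Mir23b moved. Mir23b and Mir3074-1 have only a 5p strand listed, so whether it is their longer strand is not known here. Levels of different miRNAs also carry how well each strand is ligated and amplified, which was not tested.

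Within each cluster, the miR-23 hairpin far exceeded its miR-27 neighbour. Mir23a over Mir27a had a log2 ratio of 5.50 in replicate 1 and 5.59 in replicate 2, or 46.6-fold in the mean. Mir23a over Mir24-2 stood at 6.06 ± 0.07, or 66.6-fold, without the reads of miR-24-3p that fit both Mir24 hairpins. On chromosome 13, Mir23b over Mir27b had a log2 ratio of 3.18 in replicate 1 and 3.23 in replicate 2, or 9.23-fold. Mir27a starts 80 bases after the end of Mir23a, Mir24-2 starts 57 bases after Mir27a, and Mir27b starts 155 bases after Mir23b. The miR-23 hairpins differed from these neighbours by far more than the libraries did. Mir27a over Mir24-2 had a log2 ratio of 0.51 ± 0.006, again without the reads of miR-24-3p that fit both Mir24 hairpins.

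**Figure D2:**
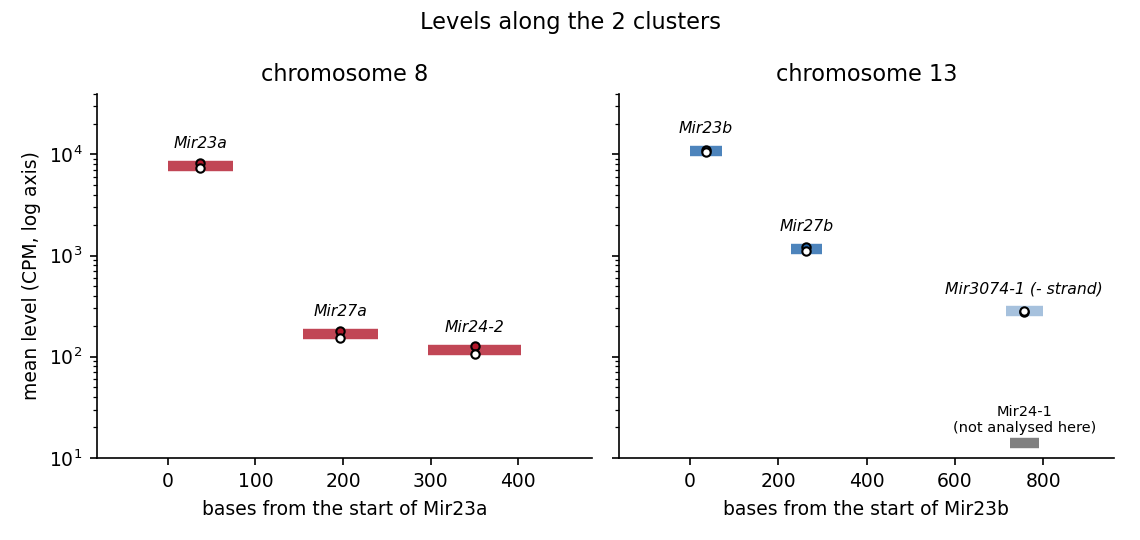
Mean level (CPM, log axis) against position in bases from the start of Mir23a (left, chromosome 8) and of Mir23b (right, chromosome 13). Thick segments span the hairpins at their mean level (paler on the minus strand), circles are replicate 1 (filled) and replicate 2 (open), and the grey segment marks the place of Mir24-1 only, at no level. Among the hairpins drawn at a level, the first is the highest in both clusters, 7760.3 CPM for Mir23a and 10747 CPM for Mir23b.

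The counts of miR-27 beside those of miR-23 were not alike in the clusters, a comparison chosen after the values were seen and given as a description with no test. Mir27a counts came to 2.21% of the Mir23a counts in replicate 1 and 2.07% in replicate 2. Mir27b counts came to 11.0% of the Mir23b counts in replicate 1 and 10.7% in replicate 2. The log2 ratio of these ratios, chromosome 8 over chromosome 13, was -2.34 ± 0.03. Mir27a over Mir27b had a log2 ratio of -2.74 in replicate 1 (95% interval -2.95 to -2.55) and -2.87 in replicate 2 (-3.10 to -2.66), or 7.01-fold fewer counts for Mir27a in the mean, against 1.39-fold fewer for Mir23a than for Mir23b. A read of a miR-27 3p strand that stops short of position 19 fits both genes, and the number of such reads is unknown. Whether reads of Mir27b with an error at that position were counted for Mir27a, which would raise its count and its share, is also unknown. Since miR-23a-3p matches the Mir23b hairpin with 1 mismatch, reads of it that miss this base or carry an error there meet the same uncertainty. The ratio and the shares of Mir23a and Mir23b are thus not free of it.

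Put as a share of the paralogs, Mir23a supplied 42.7% of the Mir23 counts in replicate 1 (42.0 to 43.3%, Wilson) and 41.2% in replicate 2 (40.5 to 41.8%). Mir27a supplied 12.96% of the Mir27 counts in replicate 1 (11.5 to 14.6%) and 11.99% in replicate 2 (10.5 to 13.6%). The chromosome 8 genes thus took a smaller part of the miR-27 than of the miR-23 in both libraries. This restates the ratio of ratios above, chosen after the values were seen, and is not a test of it. Over all 5 hairpins, those of chromosome 8 held 41.0% of the counts in replicate 1 (40.4 to 41.6%) and 39.6% in replicate 2 (38.95 to 40.2%). The shares of the libraries differed by more than counting error (two-sided Fisher's exact test, p = 0.000823), around a mean of 40.3 ± 1.02%. The Mir27a share, with fewer counts, was not shown to differ between the libraries (Fisher's exact test, p = 0.409).

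**Figure D3:**
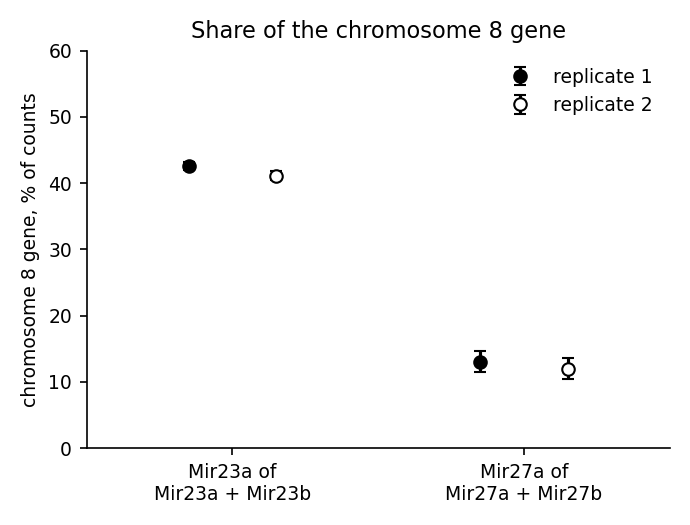
Percent of the counts of a paralog pair that belong to the chromosome 8 gene, Mir23a of Mir23a plus Mir23b and Mir27a of Mir27a plus Mir27b, in replicate 1 (filled) and replicate 2 (open) with 95% Wilson intervals. The share is 42.7% and 41.2% for Mir23a and 12.96% and 11.99% for Mir27a.

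Wide differences between neighbouring hairpins were also seen in other clusters of the same libraries. Among 44 clusters of 2 or more miRNA genes with 10 counts or more each, on the same strand and within 10 kb of the next, the log2 ratio of the highest to the lowest mean CPM had a median of 3.80, with quartiles of 2.16 and 6.53. The chromosome 8 cluster, at 6.06, was exceeded by 12 of the 44 clusters, and the chromosome 13 cluster, at 3.21 for Mir23b and Mir27b, by 25. The lowest gene on chromosome 8 is Mir24-2, whose count leaves out the shared reads of miR-24-3p. Mir23a over Mir27a stood at 5.54. The first counted gene in the direction of transcription had the highest level in 18 of the 44 clusters, or 40.9%. This count was made after the values were seen. The 18 include both miR-23/27/24 clusters, but there the miR-24 hairpins could not be fairly compared. Mir24-2 lacks its shared reads, and the chromosome 13 cluster was judged on Mir23b and Mir27b alone. Whether the first hairpin was the highest of all hairpins in either cluster is thus unknown. A cluster of more genes has more room for a wide spread, and those above the chromosome 8 cluster include some of 6 to 31 genes. In the 35 clusters of 2 or 3 genes the median was 3.21 and the upper quartile 5.90, below the 6.06 of chromosome 8. The first counted gene was highest in 45.7% of these. Clusters with near copies elsewhere lose reads in the same way as Mir24-2, and no test was made.

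**Figure D4:**
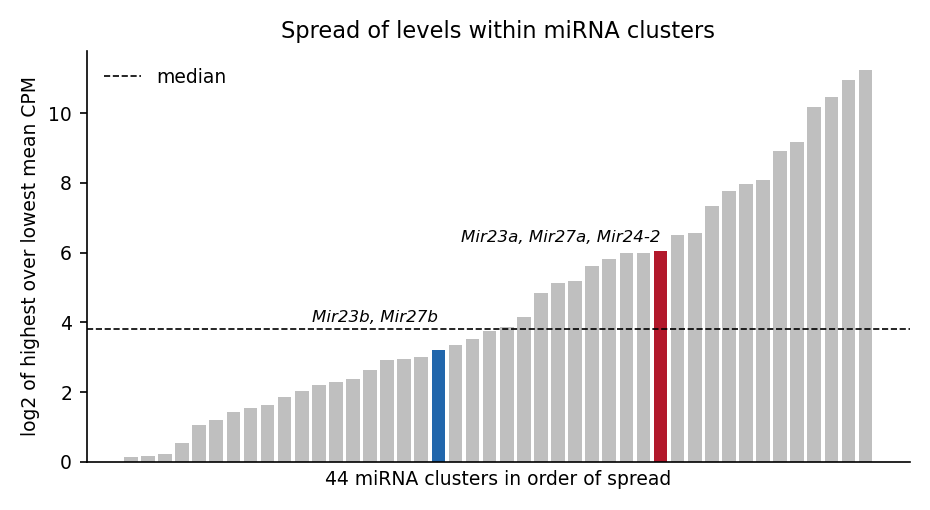
Log2 of the highest over the lowest mean CPM in each of 44 miRNA clusters, in order, with the median as a dashed line at 3.80. The cluster of Mir23a (red, 6.06) lies above the median and that of Mir23b (blue, 3.21) below it.

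On the strand opposite to each gene, Mir3074-1 held most of the counts. Mir23a, Mir23b and Mir27a had 0 opposite-strand counts in both libraries, which for Mir23a in replicate 1 allows a share of up to 0.0287%. Mir27b had 1 and 1, and Mir24-2, whose other strand holds Mir3074-2, had 2 and 1. Mir3074-1 had 28 opposite-strand counts beside 351 sense counts in replicate 1, a share of 7.39% (5.16 to 10.5%, Wilson). In replicate 2 it had 14 beside 371, a share of 3.64% (2.18 to 6.01%). These reads lie in the orientation of Mir24-1. Over all gene rows the opposite strand held 3.61% of the counts in replicate 1 and 3.22% in replicate 2, spread unevenly, since 34 and 35 of 409 genes with 10 counts or more on both strands together had any. Which mature strand of a hairpin a count belongs to is not given in the tables, so the 5p and 3p products of Mir24-1 and Mir3074-1 cannot be separated.

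Between the replicate libraries, Mir23a and Mir23b were called higher in replicate 1, both by small amounts. The log2 ratio of Mir23a was 0.15, from 8167 CPM in replicate 1 against 7354 CPM in replicate 2, with a 95% interval of 0.11 to 0.19. Its exact binomial test, adjusted over 398 genes, gave p = 1.59e-12. With TMM scaling the ratio of Mir23a was 0.08, outside that interval, with an adjusted exact p of 0.000598, and with DESeq2 size factors it was 0.10. The log2 ratio of Mir23b was 0.06, from 10981 against 10514 CPM, with an interval of 0.03 to 0.10 and an adjusted exact p of 0.0015. The call of Mir23b depends on the scaling, since the ratio of Mir23b was -0.0089 by TMM scaling and 0.01 by the size factors of DESeq2, and it passed with neither. The other log2 ratios were 0.24 for Mir27a (-0.04 to 0.52), 0.25 for Mir24-2 (-0.09 to 0.59), 0.11 for Mir27b (0.01 to 0.22) and -0.06 for Mir3074-1 (-0.28 to 0.15), and these 4 genes did not pass. Of the 398 genes with 10 counts or more, 28.4% were called, 20.6% higher in replicate 1 and 7.79% lower, and calls of 2 of 6 higher and 0 of 6 lower do not set these genes apart. None of the 6 genes passed a 2-fold minimum, as 2.76% of all genes did, and 0 of the 6 passed in edgeR's exact test with the spread of all genes, a biological coefficient of variation of 10.3%. In that test 0 of the 6 had an unadjusted p under 0.05, against 21 of 398 genes, and 8 of the 398 passed with adjustment. Its spread was estimated from the same 2 libraries taken as 1 group, so the difference between them enters the spread. Few calls are then largely built in, and the test cannot show that a gene is alike in both.

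The median log2 ratio of the 6 genes was 0.13, against 0.07 over the 398 genes, and 5 of the 6 were above 0, as were 64.3% of all genes. With TMM scaling 4 of the 6 were above 0, and the calls over all genes were 52 higher and 54 lower in place of 82 and 31. With DESeq2 size factors they were 61 higher and 49 lower. Blood vessel miRNAs differed the same way: 3 of the 3 listed, led by Mir126a with 34601 CPM in replicate 1 against 30323 CPM in replicate 2, were called higher in replicate 1 and 0 lower, and their summed level was 42717 CPM in replicate 1 against 37465 CPM in replicate 2. The neural list had 4 higher and 0 lower of 9 tested, with sums of 40092 and 34513 CPM, and the erythroid list 1 and 0 of 3, with sums of 606 and 371 CPM. Mesenchymal miRNAs had 3 higher and 1 lower of 6, with sums of 15877 and 14552 CPM, leukocyte miRNAs 0 and 0 of 4, with sums of 788 and 804 CPM, and Hox miRNAs 2 and 0 of 4, with sums of 210 and 84.0 CPM. Of the listed genes that were counted, Mir196a-1 of the Hox list was at 0 in both libraries. The part of these cells in the small differences of Mir23a and Mir23b was not tested.

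**Figure D5:**
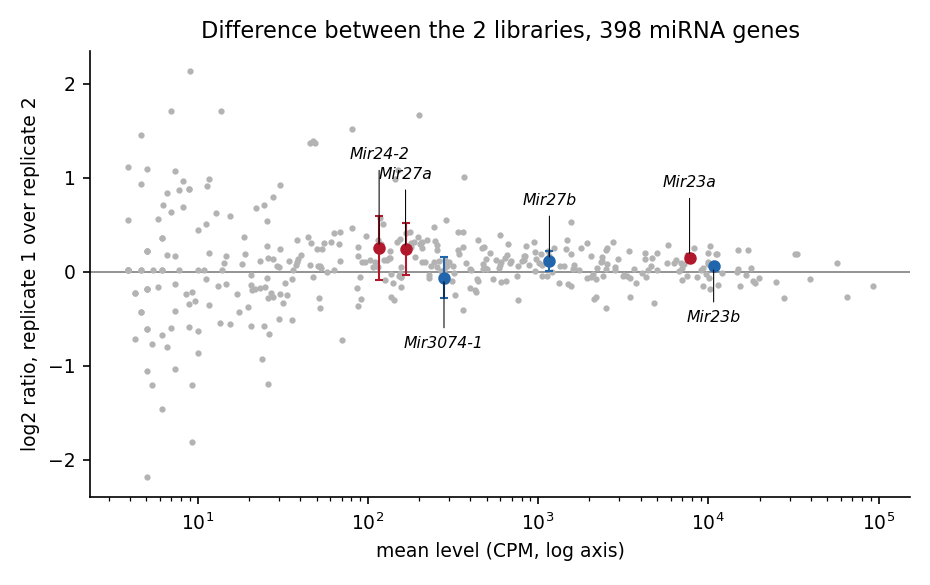
Log2 ratio of replicate 1 over replicate 2 against mean CPM (log axis) for 398 miRNA genes (grey), with the 6 genes labelled and drawn with exact 95% intervals of counting error, red for chromosome 8 and blue for chromosome 13. All 6 lie within 0.25 of 0.

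The genes nearest in level over the 2 libraries, by the distance of log2(CPM + 1), were Mir143 for Mir23a, Mir219a-2 for Mir27a, Mir29a for Mir24-2, Mir411 for Mir23b, Mir210, a miRNA known to be induced by low oxygen, for Mir27b and Mir301b for Mir3074-1. The distances ran from 0.02 for Mir301b to 0.12 for Mir219a-2. Mir143, a blood vessel and smooth muscle miRNA, had 7975 CPM in replicate 1 against 7047 CPM in replicate 2. With only 2 libraries of 1 group, this likeness is one of level. The nearest miRNA genes along chromosome 8 outside the cluster were Mir181c and Mir181d, known from brain and lymphocytes, on the minus strand 29557 and 29731 bases before Mir23a. Mir181c had 9561 CPM in replicate 1 against 9727 CPM in replicate 2, and Mir181d had 10859 CPM in replicate 1 against 11930.1 CPM in replicate 2, levels above that of Mir23a in both libraries. No further miRNA gene of the annotation lay within 50 kb of Mir23b, Mir27b or Mir3074-1 beyond those named.

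Other miRNAs with a related seed were looked up in RefSeq, since they can pair with some of the same sites. Of 4 counted genes with part of the miR-27 seed, 3 reached 2 CPM in both libraries, and Mir6985 had 0 counts in replicate 1 and 1 in replicate 2. In miR-128-3p, a brain miRNA known from neurons, bases 2 to 7 are bases 3 to 8 of miR-27.
miR-128-3p (Mir128-1 and Mir128-2): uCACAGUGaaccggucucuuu
Mir128-1 had 199 CPM in replicate 1 against 179 CPM in replicate 2, and Mir128-2 had 71.0 and 65.5 CPM. Both are listed with the same mature strand, so their counts leave out the reads that fit both. Mir673, whose 5p strand has bases 2 to 7 of miR-27, had 279 CPM in replicate 1 against 230 CPM in replicate 2. In these counts Mir27b was above each of these genes in both libraries, and Mir27a was below Mir128-1 and Mir673. Without the shared reads of Mir128-1 and Mir128-2, the order of miR-27 and miR-128 is unknown. The seed of miR-24-3p is shared by 4 counted genes, Mir6369, Mir6410, Mir6413 and Mir5124b, which had 0 counts in both libraries, a limit of 2.34 CPM in replicate 1 and 2.31 CPM in replicate 2 at 3 counts. Of 4 counted genes with an offset match to the first 8 bases of miR-24-3p, 1 had 2 CPM or more in both libraries, Mir149 of the neural list, with 16186 CPM in replicate 1 against 13773 CPM in replicate 2. No gene with such a match to miR-23a-3p was found outside the clusters. A match of this kind is a description of letters and not of a target.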

How the data were processed

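Per the text files deposited with the counts, the authors aligned reads to mm10 and counted them per miRNA gene of GENCODE M4, and per the labels inserts were under 30 bases. Which aligner and counter were used is not given in the sources used here. Each deposited table of raw counts has 3 columns with no header, of which the first is the sum of the others in every gene row. The second, with 96.4% and 96.8% of the counts, was taken as the strand of the gene and used. The 4 summary rows, with multimapping reads, were kept out of totals. Symbols and positions came from GENCODE M21 (GRCm38, which is mm10), with 1894 of 1973 identifiers matched; M4 was not used here. Sequences are from RefSeq (GRCm38.p6). The genes, lists and tests were chosen with earlier results of these data known. Named genes are the 6 members, the gene nearest in level to each, miRNA genes within 50 kb, genes with a related seed, and up to 2 genes of each marker list by mean CPM, with any listed gene at 0. Mir124a-2 and Mir9-2 are named as low neural genes, chosen after their values were seen. Mir146 and Mir142 stand for Mir146a and Mir142a, and Mir142 and Mir9-1 were not analysed here. The ratio of Mir27 to Mir23 and the count of clusters with the first counted gene highest were chosen after their values were seen.

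With 2 libraries of 1 group no quasi-likelihood fit was possible. Genes with 10 counts or more were compared between libraries by exact binomial tests, two-sided, on the library totals. The p-values were adjusted by Benjamini-Hochberg for 398 genes, with a threshold of 0.05 and 0.5 counts added for log2 ratios. The test was checked on simulated counts with counting error alone, which cannot show how it behaves at the spread of these libraries. The libraries differed beyond sampling noise (chi-square per degree of freedom 22.1). Limits for a count of 0 are 3 counts. Intervals and limits cover counting error only, since PCR copies are not independent molecules. Alternatives covered scaling (TMM in edgeR 4.0.16, size factors of DESeq2 1.42.0), the column, filters, pseudocount, denominators, single libraries and edgeR's exact test. The versions used were R 4.3.3, scipy 1.17.1 and Python 3.11.15.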

Additional observations from a re-analysis of the deposited data

Results flagged for a closer look

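Opposite-strand counts at Mir3074-1, in a column outside the main measurement, were 28 in replicate 1 and 14 in replicate 2, above the 3 counts that a count of 0 allows. They lie in the orientation of Mir24-1, which is not analysed here.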

How the results depend on the processing

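The detection of all 6 genes, the 15 differences between members, and the chromosome 8 share (39.6 to 41.0% with 1 library left out, 39.9% without Mir24-2) kept their direction and any call under every alternative run on them. No alternative put back the reads that fit several places. The log2 ratio of Mir27 per Mir23 between the clusters, which has no test, was -2.36 to -2.32 in single libraries. With neighbours within 3 kb, 10 of 43 clusters had a wider spread than the chromosome 8 cluster. The summed level of the 6 genes, 20236 CPM, was 9749.65 per 1e6 mapped reads and 28382 CPM without the 5 genes with most counts in the denominator, both by construction, and 19532 to 20939 CPM in single libraries. Of the 6 genes, 1 was called between the libraries with TMM scaling, 1 with DESeq2 size factors and 0 in edgeR's exact test, against 2. Over all genes edgeR's exact test called 8, against 113, with a spread taken from the same libraries that it compares. Mir23b turned to -0.0089 with TMM scaling and -0.0088 in edgeR's exact test, which uses TMM; beyond the scaling and spread that these take in, the cause was not tested. Single levels moved beyond their SD in 13 of 42 alternatives. These include every level per 1e6 mapped reads or without the 5 genes with most counts, which move by construction. Leaving out 1 of 2 libraries cannot move a mean beyond its SD. Apart from these, only Mir23b moved, from 10747 to 10380 CPM with both strands summed. The calls of single replicate ratios were the same in 38 of 42. No paired analysis was possible because the series has 1 group. Depth limits Mir27a and Mir24-2, at 138 to 231 counts, and the loss of reads that fit several places limits Mir24-2 and Mir3074-1.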
